A study of Drosophila melanogaster with 2 samples.

Results

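The regions described are 795 Twist binding peaks whose summits lay between genes but close to one. They were taken from the 6516 peaks that were reproducible across both replicates by the irreproducible discovery rate (IDR), an estimate of whether a peak keeps its rank between replicates. A summit was kept when it fell outside every annotated gene body and from 501 to 5000 bp from the nearest annotated transcription start. These near-start intergenic summits were 12.2% of all summits (95% Wilson interval 11.4 to 13.0%). The data are anti-GFP chromatin immunoprecipitation with sequencing (ChIP-seq), a method that recovers the DNA bound by a tagged protein, from whole Drosophila melanogaster embryos. All embryos were of one transgenic line in which Twist carries GFP at its C-terminus, were collected at 2 to 12 h, were of mixed sex, and formed 1 group of 2 biological replicates. The promoter that drives the fusion, and whether the line keeps an untagged twi gene, are not stated in the labels. Every tissue of the embryo contributed chromatin, so a site bound in few cells and a site bound weakly in many cannot be told apart. No other genotype, antibody or stage was compared, and the sequencing depth is unknown. All intervals cover the counting of peaks only.

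Twist is a basic helix-loop-helix factor that specifies the mesoderm of the early embryo. Proteins of this family bind as dimers to E-boxes, short palindrome-like DNA words that begin with CA and end with TG, and Twist is known to favour CACATG or CATATG. Many enhancers of Drosophila developmental genes lie in the intergenic DNA beside the gene they control, and others in its introns. The words CACATG and CATATG are both called Twist-type E-boxes here.

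The summit windows below are 101 bp of the plus strand of the RefSeq Release 6 genome (dm6), centred on the summit, for 7 of the 20 near-start intergenic peaks with the highest signal. They show several of the E-box arrangements behind the counts that follow: 1 site, 2 spaced or overlapping sites, 3 sites and none. The most sites in any window of the 795 summits was 7. Capitals mark the Twist-type E-boxes, where CATGTG is CACATG read on the other strand. The windows are chr3L:14976157-14976257 (nearest start Ocho, a gene of the Bearded family of Notch pathway inhibitors), chr2L:90231-90331 (net, a helix-loop-helix factor), chr3L:22943622-22943722 (mir-9388, a microRNA), chr3R:21393155-21393255 (bap, a homeobox factor of the visceral mesoderm), chr3L:320948-321048 (fwd, a lipid kinase), chr3R:10681565-10681665 (Phyhd1) and chr3L:815920-816020 (a long non-coding RNA gene).
Ocho: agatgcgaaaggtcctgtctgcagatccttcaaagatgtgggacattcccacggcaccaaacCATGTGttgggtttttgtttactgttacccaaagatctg
net: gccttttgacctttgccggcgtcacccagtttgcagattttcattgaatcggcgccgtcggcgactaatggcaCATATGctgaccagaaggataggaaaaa
mir-9388: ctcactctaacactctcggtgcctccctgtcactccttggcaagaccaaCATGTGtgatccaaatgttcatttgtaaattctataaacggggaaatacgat
bap: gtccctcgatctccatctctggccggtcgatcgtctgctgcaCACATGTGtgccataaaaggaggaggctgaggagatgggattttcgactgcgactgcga
fwd: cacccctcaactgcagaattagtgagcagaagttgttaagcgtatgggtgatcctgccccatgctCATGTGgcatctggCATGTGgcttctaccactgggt
Phyhd1: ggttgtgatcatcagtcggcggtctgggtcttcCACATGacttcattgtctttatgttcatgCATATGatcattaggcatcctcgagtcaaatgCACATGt
lncRNA:CR44537: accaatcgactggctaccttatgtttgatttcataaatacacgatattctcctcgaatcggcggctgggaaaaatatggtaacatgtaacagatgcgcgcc

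At Ocho the peak ranked 7 of all 6516 by signal, 15 in replicate 1 and 5 in replicate 2, with its CATGTG 15 bp from the summit. The peak upstream of net ranked 14, with ranks of 19 in replicate 1 and 8 in replicate 2, and its single site was CATATG. The bap peak ranked 91, with 113 in replicate 1 and 71 in replicate 2, and its 2 sites overlap in the word CACATGTG, 3 bp from the summit. These 3 peaks were therefore high in both replicates. At Phyhd1, 3 sites lay in 1 window of a peak ranked 136, with 154 in replicate 1 and 118 in replicate 2. High signal also occurred without a Twist-type E-box. The second highest of these peaks, nearest to CycB, a cyclin gene, ranked 10, with 13 in replicate 1 and 9 in replicate 2, and its window held no E-box of any type. The peak at lncRNA:CR44537 ranked 62, with 78 in replicate 1 and 53 in replicate 2, and the only E-box in its window was CAGATG. The peak nearest to CG42807 ranked 131 and its window held no E-box. Across the 20 highest peaks, 17 windows held a Twist-type E-box and 7 held at least 2. All 20 were matched in both replicates, with a lowest rank of 221 in replicate 1 and of 151 in replicate 2, a measure that chose them in part.

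The first comparison asked how densely such DNA was bound relative to other DNA. The sequence that satisfies the same rule comes to 16.8 Mb, or 12.2% of the genome, and held 47.4 summits per Mb, with 46.0 in replicate 1 and 47.7 in replicate 2 when the 6516 highest peaks of each replicate were used. The whole genome also held 47.4 summits per Mb, so near-start intergenic DNA was bound at the genome average. Introns in the same range of distances held 66.6 per Mb, and their values in replicate 1 (64.6) and replicate 2 (70.2) were both above those of the intergenic DNA. Intergenic DNA beyond 5 kb held 18.2 per Mb and introns beyond 5 kb 29.2 per Mb. Promoters, within 500 bp of a start, held 141 per Mb. Exons held the fewest, 9.53 per Mb, with 9.01 in replicate 1 and 9.99 in replicate 2. Near-start intergenic DNA thus lay below promoters and near-start introns and above exons and both kinds of DNA beyond 5 kb, in the IDR list and in each replicate.

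Of the 795 summits, 767 (96.5%, interval 95 to 97.6%) had a summit within 100 bp in both replicates. Another 15 were matched in replicate 1 alone and 13 in replicate 2 alone. The IDR list was built from the replicate lists, so this match is a description of the list and not independent evidence. The median offset from the matched summit was 8 bp in replicate 1 and 9 bp in replicate 2, well inside the 101 bp window used for motifs. The signal ranks spread over the whole list, with a median of 3274 and quartiles of 1557 and 4885. Their ranks in replicate 1 and replicate 2 had a Spearman correlation of 0.719 over the 767 matched summits, which share their embryos' stage, antibody and control. The 795 summits lay in 737 distinct peak intervals, 122 of them in an interval with at least 2 summits, and no 2 were closer than 199 bp.

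**Figure D1:**
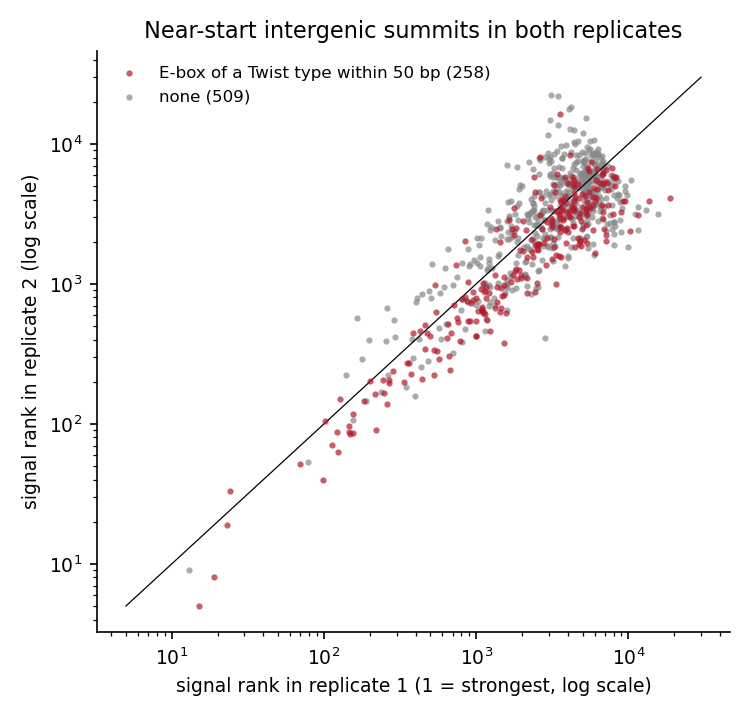
Signal rank of each near-start intergenic summit in replicate 1 (horizontal) and replicate 2 (vertical), both on log scales with 1 as the strongest, for the 767 summits matched in both. The line marks equal ranks. Summits with a Twist-type E-box (red, 258) lie mostly below the line, with a higher position in replicate 2, and those without (grey, 509) lie on both sides.

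Replicate 2 gave the E-box sites a higher position than replicate 1. Among matched summits with a Twist-type E-box, 210 of 258 (81.4%, interval 76.2 to 85.7%) ranked higher in replicate 2, against 243 of 509 (47.7%, interval 43.4 to 52.1%) of those without one. The difference was 33.7 percentage points (95% Newcombe interval 26.9 to 39.7), and the median rank of the E-box sites was 1964 in replicate 2 and 2605 in replicate 1. Base composition moved with this shift as well. In the lowest tertile by GC content, 64.3% of sites with the E-box ranked higher in replicate 2, against 22.0% of sites without it. In the highest tertile the shares were 82.6% with the E-box and 69.7% without. The E-box difference was thus present within each tertile, from 42.3 points (interval 26.1 to 56.0) in the lowest to 12.8 points (interval 2.22 to 22.6) in the highest. The shift was not particular to these summits: intronic summits within 5 kb gave a difference of 27.1 points (interval 22.4 to 31.6) and promoter summits 36.6 points (interval 31.6 to 41.4). Whether the replicates differ in depth or in the strength of the immunoprecipitation was not tested.

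Upstream of genes, summits were densest close to the start, and downstream the order of the distances differed between the replicates. The median distance was 1985 bp, from 502 to 4995 bp. Upstream of a gene and over 500 to 1000 bp from its start there were 61.6 summits per Mb, with 57.3 in replicate 1 and 64.6 in replicate 2. Upstream from 2000 to 5000 bp the density was 43.7 per Mb, with 41.4 in replicate 1 and 43.3 in replicate 2. Downstream the density was 41.4 per Mb over 500 to 1000 bp, from 24 summits, and 47.6 over 1000 to 2000 bp. These 2 densities were 41.4 and 45.0 in replicate 1, and 48.3 and 44.3 in replicate 2. Downstream from 2000 to 5000 bp it was 40.7 per Mb, with 42.7 in replicate 1 and 42.0 in replicate 2. The fall with distance on the upstream side was therefore larger than the gap between replicates, while beyond 2000 bp the order of the sides differed between the replicates. Of the 795 summits, 539 (67.8%, interval 64.5 to 71.0%) were upstream of the gene of the nearest start, where 64.1% of the eligible DNA lies. Between divergently transcribed genes the density was 52.2 per Mb, between genes in tandem 47.1 and between convergent genes 42.4.

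**Figure D2:**
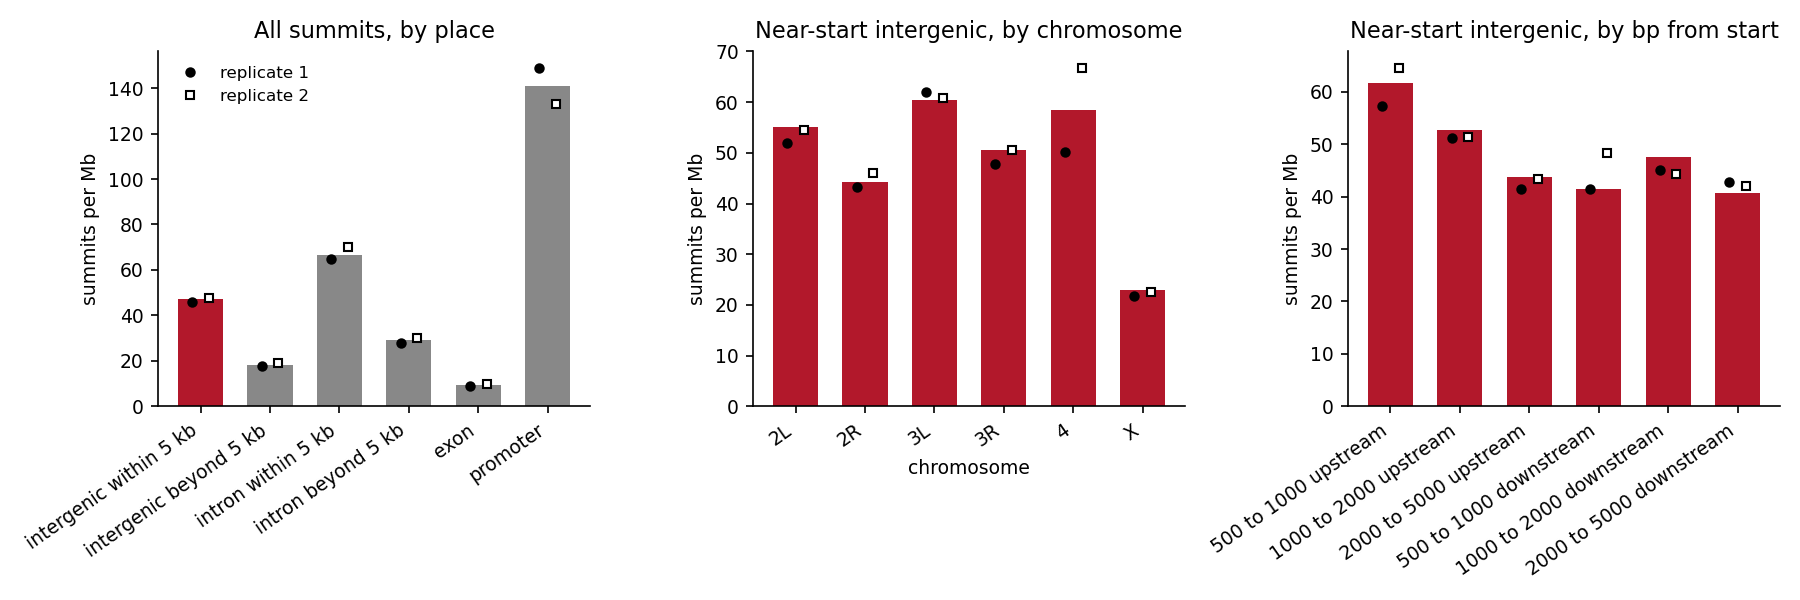
Summits per Mb of sequence. Bars are the IDR list, and points are the equally long lists of replicate 1 and replicate 2. Left, each place in the genome, where near-start intergenic DNA (red) has 47.4 per Mb and promoters 141. Middle, near-start intergenic summits by chromosome, lowest on X at 23.0. Right, by distance from the nearest start and side, highest at 500 to 1000 bp upstream.

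The peaks just inside and just outside the limits of the rule had ranks from high to low. The nearest summits kept lay 502 bp (CG33136, rank 715), 504 bp (Mkp3, rank 1951) and 508 bp (cato, rank 422) from a start. The nearest left out as promoter summits were each at 498 bp, with ranks of 1381 (RhoGEF3), 3223 (SERCA) and 5184 (lncRNA:CR45277). At the far limit the last summits kept lay at 4961 bp (Tom40, rank 4827), 4984 bp (lncRNA:CR43280, rank 3787) and 4995 bp (lncRNA:CR42755, rank 4371). The first left out were at 5001, 5027 and 5050 bp, with ranks of 2911, 5940 and 1880.

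The X chromosome held fewer of these summits than its eligible DNA. On X there were 55, or 23.0 per Mb, against 52.9 per Mb on the 4 large autosome arms, a ratio of 0.435. The ratio was 0.423 in replicate 1 and 0.424 in replicate 2. For introns within 5 kb the ratio of X to autosomes was 0.931 and for promoters 0.849, while for intergenic DNA beyond 5 kb it was 0.556. The shortfall on X was thus deeper between genes than in introns or promoters. In the pooled list of 30000 peaks, which was not limited to reproducible ones, the ratio for near-start intergenic peaks was 0.743. Of those pooled peaks, 12.1% on X were also in the IDR list, against 20.6% on the autosome arms. Mixed-sex embryos carry fewer copies of X than of the autosomes, and the part of copy number in these values was not tested.

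The nearest start belonged to a protein-coding gene for 514 summits (64.7%), where such starts own 66.2% of the eligible DNA. It belonged to a long non-coding RNA gene for 251, a tRNA gene for 15, a snoRNA gene for 3, a pseudogene for 2 and other kinds of non-coding RNA gene for the rest. In all there were 547 such genes. The choice of gene type thus followed the DNA available. The start itself held an IDR summit within 500 bp for 219 (27.5%, interval 24.6 to 30.8%), more often for upstream summits (31.0%, interval 27.2 to 35%) than for downstream ones (20.3%, interval 15.8 to 25.7%). For intronic summits within 5 kb, the start held one for 30.8% (interval 28.6 to 33.0%). Of all 23694 annotated starts, 16.9% (interval 16.4 to 17.4%) held one, a value inside the interval of the downstream summits. That share counts starts, while the others count summits.

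The summits were also counted by intergenic interval. Intervals differ in the length of their eligible DNA, and the count expected from that length was not computed. Some summits also share 1 peak, as 55 peak intervals held 2 or more of them. Of 6485 intervals with eligible DNA, 498 held a near-start summit: 322 held 1, 110 held 2 and 66 held 3 or more, so that 473 summits shared their interval with another. The fullest interval (chr2L:14430823-14448408), 17586 bp between lncRNA:CR44732 and lncRNA:CR45726, held 9, with signal ranks from 261 to 3758. Of the 9, the 3 ranked 261, 770 and 842 had a Twist-type E-box. The next 4 intervals held 6 each. They lay between twi and Fatp2, between CG7320 and lncRNA:CR45935, between lncRNA:CR44077 and slp1, and between lncRNA:CR44730 and lncRNA:CR44731.

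The interval after twi (chr2R:23048326-23055473) is 7148 bp long. Its strongest summit, 3651 bp downstream of the nearest twi start, ranked 61, with 70 in replicate 1 and 52 in replicate 2, and its window held 2 Twist-type E-boxes. The next, 2594 bp upstream of Fatp2, a fatty acid transporter gene, ranked 333, with 383 in replicate 1 and 294 in replicate 2, and held none. The other 4 ranked from 1982 to 3908 and held none, and the one ranked 3908 had no match in replicate 1. One strong summit with the motif thus stood among weaker ones without it. The annotation gives twi a body from -60948 to 2003 bp of that start, and the 3 summits upstream of the start, at -125 and -3152 bp (promoter summits) and at -1099 bp (an intronic summit), are therefore not among these.

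Around slp1 and slp2, paired fork head genes of segmentation that also act in the mesoderm, there were 10 near-start intergenic summits from -11332 to 6826 bp of the start of slp1. The 6 between lncRNA:CR44077 and slp1 ranked from 405 to 3987, and 4 held a Twist-type E-box. The strongest near the 2 genes, 4339 bp upstream of slp2, ranked 342, with 294 in replicate 1 and 416 in replicate 2, and held none. Downstream of bap, 5 summits ranked from 91 to 5472, of which the strongest, printed above, was the one with Twist-type E-boxes. Upstream of zfh1, a zinc finger and homeobox factor of the mesoderm, 5 summits ranked from 623 to 5820. At zfh1 the 2 strongest mapped summits were not among these: one in an intron at 4502 bp from the start ranked 92, and one at -10902 bp, beyond the 5 kb limit, ranked 265.

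**Figure D3:**
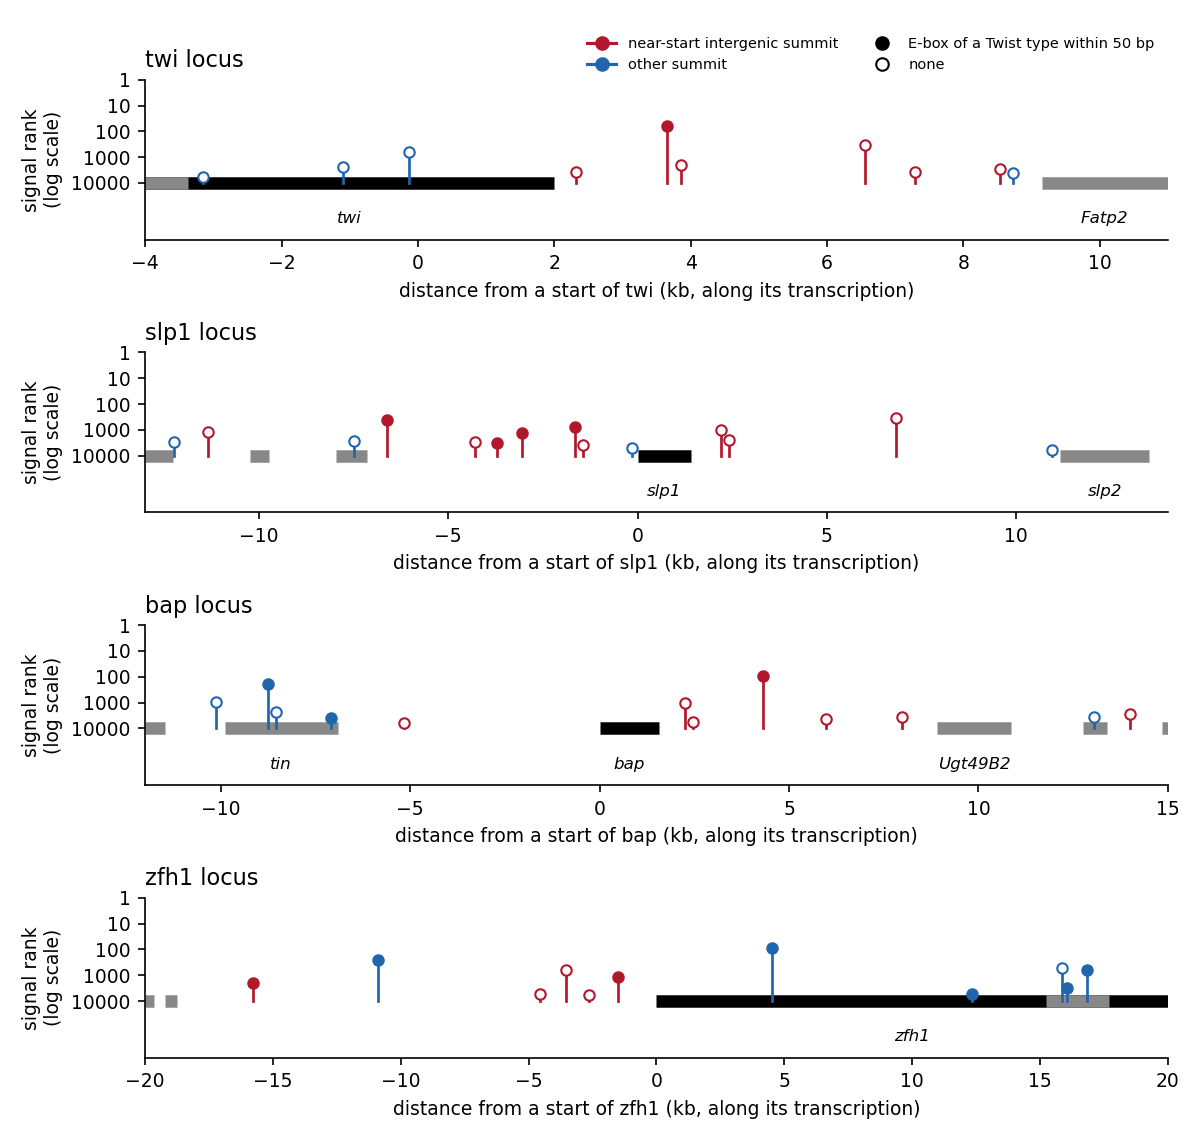
Summits around starts of twi, slp1, bap and zfh1, by distance in kb along the direction of transcription, with height the signal rank on a reversed log scale. Red marks near-start intergenic summits and blue the others, filled where a Twist-type E-box lies within 50 bp. Black bars are the named gene and grey bars other genes. The strongest intergenic summits at twi (rank 61) and bap (rank 91) are filled, and the other summits of their intervals are open.

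The genes beside these summits were compared by role, over 10 lists of 124 genes. A gene was counted when it held the nearest start of such a summit or flanked its interval. Of the 13968 protein-coding genes 4.55% were counted, with 46.0 summits per Mb of the eligible DNA that flanks them. Of 13 early mesoderm genes, 5 were counted, with 268 summits per Mb from 15 summits. Most of the 15 came from 2 of the genes, 6 beside twi and 5 beside zfh1. The genes counted were twi, zfh1, trbl, sna and tin, and genes such as Mef2, htl and stumps had none. The only summit of trbl, a pseudokinase that holds back mitosis in the invaginating mesoderm, ranked 1010 and held a Twist-type E-box, with 1450 in replicate 1 and 670 in replicate 2. Of the 2 summits at sna, a zinc finger repressor of the mesoderm, the stronger lay upstream and ranked 2037. It differed between the replicates, with 1586 in replicate 1 and 7096 in replicate 2, and the other summit ranked 5664. The only one at tin, a homeobox factor of heart and dorsal mesoderm, was low in both, with 7943 in replicate 1 and 5054 in replicate 2. The summits at these genes therefore ran from among the strongest to near the end of the list.

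Genes that act later in mesoderm derivatives were also counted. Of 13 heart genes 8 were counted, with 214 summits per Mb. Their strongest flanked Doc2, a T-box factor, at rank 154, with 188 in replicate 1 and 146 in replicate 2, although the start nearest to it was that of CG5194. Him, an inhibitor of Mef2 activity, had a summit 1180 bp upstream at rank 363, and mid, another T-box factor, one 1721 bp upstream at rank 884. Of 8 visceral mesoderm genes 5 were counted, with 168 per Mb, led by bap, then bin, a fork head factor, at rank 1310, and org-1, a T-box factor, at rank 2894. Of the 21 somatic muscle genes, which act in muscle identity or myoblast fusion, 5 were counted, with 101 per Mb. The strongest were at kon, a transmembrane protein of myotube guidance, at rank 195 (202 in replicate 1 and 202 in replicate 2), and at lmd, a zinc finger factor of fusing myoblasts, at rank 291 (373 in replicate 1 and 229 in replicate 2). Another, at rank 1484, flanked the homeobox gene slou. At lmd, 4 summits lay upstream within 1 interval and 3 of them held a Twist-type E-box. Of 18 muscle structure genes 2 were counted, the actin genes Act87E (rank 664, matched in replicate 1 alone) and Act57B (rank 1375).

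Outside the mesoderm the segmentation list stood at 13 of 17 genes, with 201 summits per Mb. Besides slp1 and slp2 its strongest was at odd, a zinc finger pair-rule gene, at rank 794, with 808 in replicate 1, 775 in replicate 2 and 2 Twist-type E-boxes. Of 10 dorsal ectoderm genes 3 were counted, with 265 per Mb from 7 summits, 5 of them beside zen, a homeobox gene of dorsal fate. The strongest at zen ranked 398, and tup and peb had 1 each, at ranks 2164 and 3299. Of 12 neurogenic ectoderm genes 3 were counted, with 59.0 per Mb, namely SoxN, sog and vn at ranks 2450, 3243 and 5273. Hemocyte genes gave 2 of 8 (srp and gcm2, ranks 4662 and 5245, 118 per Mb) and neural genes 2 of 11 (dpn and nerfin-1, ranks 2615 and 3527, 32.7 per Mb). All 10 lists stood above the 4.55% of protein-coding genes by share, and 9 above the 46.0 per Mb by density, the neural list being below. The lists were chosen with earlier results of these data known, so this standing is a description and not independent evidence. The shares are not on equal terms, because only 7510 of the 13968 protein-coding genes flanked an interval with eligible DNA. In the lists this held for 16 of 17 segmentation genes and 7 of 12 neurogenic ectoderm genes, for example. Several lists rest on under 10 summits, and some genes are in more than 1 list.

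The second comparison asked which DNA words mark these summits. A Twist-type E-box lay within 50 bp of 264 of 795 summits (33.2%, interval 30.0 to 36.6%), against 139 of 1590 control windows centred 1000 bp to either side (8.74%, interval 7.45 to 10.2%). The ratio was 3.80 and the difference 24.5 percentage points (interval 20.9 to 28.1). Replicate 1 alone gave 32.1% of summit windows and replicate 2 alone 35%, so the difference from the controls was far larger than that between replicates. Intronic summits within 5 kb held the motif in 34.4%, a difference of -1.22 points for the intergenic ones (interval -5.17 to 2.82), and intergenic summits beyond 5 kb in 34.3%. Promoter summits held it in 17.7%, 15.5 points less than the near-start intergenic ones (interval 12.0 to 19.2). By the share with either Twist-type E-box, the near-start intergenic summits thus stood with the intronic and the farther intergenic ones and apart from promoters. The classes were not compared at equal GC content, which averaged 43.0% in near-start intergenic and 37.2% in promoter summit windows. Among near-start intergenic summits matched in both replicates, 42 in the lowest GC tertile held the motif and 214 did not. These counts were 107 and 143 in the middle tertile, and 109 and 152 in the highest. The part of GC content in the split by place was not tested.

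**Figure D4:**
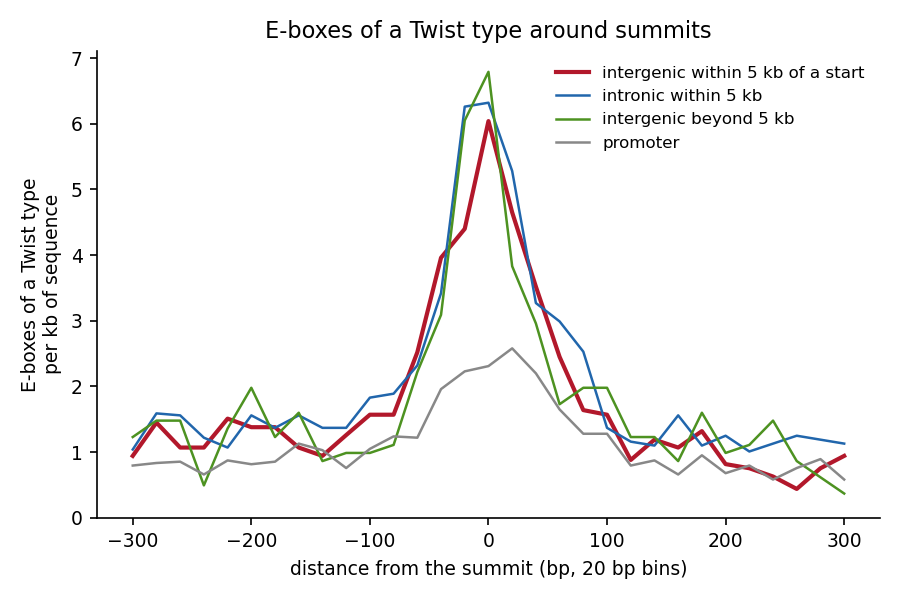
Twist-type E-boxes per kb of sequence by distance from the summit in 20 bp bins, for near-start intergenic summits (red), intronic summits within 5 kb (blue), intergenic summits beyond 5 kb (green) and promoter summits (grey). Near-start intergenic summits reach 6.04 hits per kb at the summit, and promoter summits stay under all 3 other classes there.

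The E-boxes were centred on the summit. Hits reached 6.04 per kb in the central 20 bp and 0.943 per kb at 300 bp on both sides. Within 300 bp, 491 of the 795 summits (61.8%) had a hit, at a median distance of 43.5 bp, and at promoters 43.2% had one, at 67.5 bp. A hit lay within 10 bp of 84 summits.

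The 10 E-box types did not behave alike. CACATG was in 24.2% of summit windows, against 5.53% of control windows, a ratio of 4.36. CATATG was in 11.4%, against 3.52%, a ratio of 3.25, and it was less frequent than at intronic summits within 5 kb (15.1%) by 3.63 points, with an interval of the difference, intergenic minus intronic, from -6.36 to -0.719. CAGATG followed with 10.3%, against 4.97% (ratio 2.08). CAATTG was rarer at summits than in controls, with 2.52%, against 4.78% (interval of the difference -3.72 to -0.627). CACGTG (ratio 1.83), CAGCTG (1.53) and CAAGTG (1.36) were above 1 with intervals of the difference that did not include 0, but for CACGTG and CAGCTG the interval included 0 in each replicate alone. It ran from -0.0311 to 2.66 in replicate 1 and from -0.0291 to 2.44 in replicate 2 for CACGTG. For CAGCTG it ran from -0.878 to 2.94 in replicate 1 and from -0.559 to 3.18 in replicate 2. Over all 6516 IDR peaks, which include these, it ran from 1.12 to 2.03 for CACGTG and from 1.65 to 3.09 for CAGCTG. At the near-start intergenic summits the interval included 0 for each of CAAATG or CAACTG or CAGGTG. The Twist-type words thus carried most of the excess, and any E-box at all was in 62.9% of summit windows, against 42.1% of controls.

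The bases next to CACATG also differed. The base on its 5′ side was A in 51.5% of 237 occurrences at summits, against 24.7% of 97 in control windows, and T in 7.59%, against 24.7%. Leaving out overlapping occurrences, A still stood in 52.9% at summits, against 24.7% in controls. The word ACACATGT was in 55 summit windows (6.92%), against 7 control windows (0.44%), a ratio of 15.7. The shorter word TCACATG, with T before the E-box and any base after it, was in 2.14% of summit windows, against 1.51% of controls. Its ratio was 1.42, and the 2 words differ in more than the base before the E-box. The overlapping pair CACATGTG, as printed at bap, was in 24 summit windows, against 4 control windows. At least 2 Twist-type E-boxes stood in 65 summit windows (8.18%), against 0.881% of controls, and in 10.3% of the windows of intronic summits within 5 kb. Of 80 neighbouring pairs, 24 overlapped at a spacing of 2 bp, and the median spacing was 12 bp. Among all 2080 words of 6 bp, ranked by the ratio to controls with 0.5 added to each count, the highest were ACATGT (4.58), CACATG (4.35), CATATG (3.24), ACATCT (3.11) and ACACAT (2.98), where the median word had 0.991. These words overlap one another in sequence.

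Sites with stronger signal held the motif more often. In the strongest quintile of near-start intergenic summits 56.6% of windows held a Twist-type E-box (interval 48.8 to 64.1%), and in the following quintiles 30.8, 34.6, 25.2 and 18.9% (last interval 13.5 to 25.7%). Control windows stayed between 7.55 and 10.1%. In replicate 1 the strongest quintile had 49.0% and the weakest 22.7%, and in replicate 2 they had 55.0% and 24.4%. The gradient was thus seen in each replicate. Intronic summits within 5 kb ran from 46.6% in their strongest quintile to 32.1% in their weakest, and promoter summits from 23.1 to 16.1%. In the pooled list, where 4046 peaks satisfied the same rule of place, the share was 42.5% in the strongest decile and 11.6% in the weakest. Of pooled peaks with the motif 35.9% were in the IDR list (interval 32.5 to 39.5%), against 16.0% of those without (interval 14.8 to 17.3%).

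**Figure D5:**
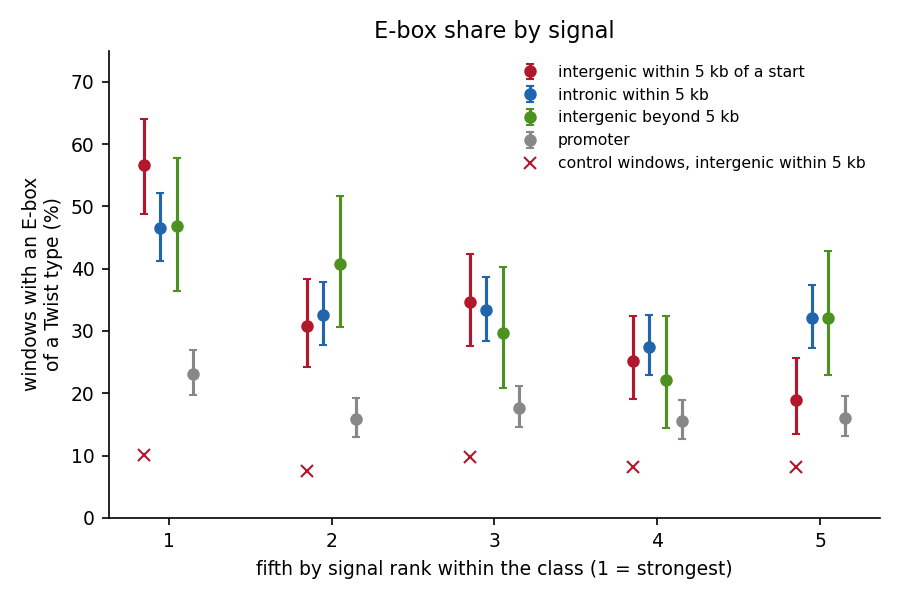
Share of summit windows with a Twist-type E-box by quintile of signal within each class, 1 being the strongest. Points are shares with 95% Wilson intervals, and crosses are the control windows of the near-start intergenic summits. Near-start intergenic summits (red) run from 56.6% in the strongest quintile to 18.9% in the weakest, and promoter summits (grey) from 23.1% to 16.1%.

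By position the motif share varied over a narrower range than by signal. It was 37.3% at over 500 to 1000 bp from the start (interval 30.4 to 44.9%), 29.3% at 1000 to 2000 bp (interval 23.9 to 35.3%) and 33.8% at 2000 to 5000 bp (interval 29.3 to 38.7%). Upstream it was 34.0% and downstream 31.6%. It was 33.6% for summits that shared their interval with another near-start summit and 32.6% for single ones. These intervals overlap in each case.

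Motifs of 8 other factors were counted in the same windows on both strands. A Tinman word (TCAAGTG or TTAAGTG) was in 6.92% of summit windows, against 3.52% of controls, a ratio of 1.96, with 1.72 in replicate 1 and 2.00 in replicate 2. Intergenic summits beyond 5 kb held one in 7.16%, intronic summits within 5 kb in 5.01% and promoter summits in 3.85%. The interval of the difference from the intronic summits included 0 (-0.0389 to 4.11), and that from promoter summits did not (1.31 to 5.16). TCAAGTG contains the E-box CAAGTG, and CAAGTG outside it had a ratio of 1.08. The excess of that E-box was thus mostly in the Tinman word. The GAGA factor word GAGAG was in 16.4% of summit windows, against 13.5% of controls, and the interval of that difference included 0 (-0.158 to 5.99). Its share was higher than at intronic summits within 5 kb (12.3%) by 4.08 points (interval 1.15 to 7.2), where the control windows also held it less often (12.1%). The Mef2 motif was in 3.52%, against 3.02% of controls, while promoter summits held it in 7.34%. The GATA words (AGATAA or AGATAG or TGATAA or TGATAG) had a ratio of 1.05. The Suppressor of Hairless words (CGTGAGAA or CGTGGGAA or CGTGTGAA or TGTGAGAA or TGTGGGAA or TGTGTGAA) had 0.909, and the Bicoid word TAATCC 0.667. The Zelda word CAGGTAG was in 12 summit windows and the Dorsal motif in 5, too few to compare.

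GC content was 43.0% on average in summit windows, against 42.1% in their control windows, and 37.2% in promoter summit windows. Of the control windows 66.3% fell in near-start intergenic DNA and 20.5% within 500 bp of a start.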

How the data were processed

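Anti-GFP ChIP-seq from 2 biological replicates of 1 group was used, with replicate numbers from the labels and no pairing of samples. The authors deposited peak lists in narrowPeak format in dm6, per the labels: 30000 peaks for each replicate and for both pooled, and 6516 in the IDR list. For the aligner and peak caller, the sources used here give no name. Each peak's deposited signal, the authors' own value on an unstated scale, served only for ranking inside one list. The authors' −log10 q-value was tied at its maximum for 100.0% of IDR peaks and not used. Lists hold no read counts, so depth is unknown.

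Places came from the Ensembl release 115 annotation without transposable elements (18277 genes), with 1-based positions. Both strands of 101 bp summit windows were searched for motifs and of control windows 1000 bp to each side. The 6516 highest peaks of each replicate gave the replicate values. No significance test was run: shares carry 95% Wilson intervals and differences Newcombe intervals. The code was tested on simulated data. The peaks and gene lists were chosen with earlier results of these data known. All 131 list entries were found, 1 through a synonym. Named were, of the 20 highest peaks, those with a printed window, those without a Twist-type E-box and that at twi (a choice made after their values were seen), the fullest intervals, 3 peaks either side of each limit, every early mesoderm gene with a peak and up to 3 genes of each other list. The comparison of ranks between replicates by E-box and GC content, the longer words and the bases beside CACATG were chosen after their values were seen. Alternatives were other annotations, limits, windows, controls, matching distances, the higher-signal 3258 peaks and each replicate left out. Software was pandas 2.3.3, numpy 2.4.6, matplotlib 3.10.9 and scipy 1.17.1 under Python 3.11.15.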

Additional observations from a re-analysis of the deposited data

How the results depend on the processing

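Of 50 values under alternatives, 24 moved by less than the spread between replicates or the interval of the result. The other 26 moved by more. Outside the matched share and the median rank, the spread came from the values with each replicate left out. Those values are also among the 50, so their labels are not independent of it. Each alternative that narrows the rule or the window changes what is counted. No paired analysis was possible because there was only 1 group. With each replicate left out in turn, the share of summits that were near-start intergenic ran from 11.8 to 12.3%, the density from 46.0 to 47.7 per Mb, the upstream share from 66.3 to 67.5%, the Twist-type E-box share from 32.1 to 35%, its ratio to controls from 3.52 to 4.18, and its difference from intronic summits from -0.727 to 0.804 points. In the higher-signal part of the IDR list the density was 23.7 per Mb, as fewer peaks were counted, the upstream share 66.2%, the E-box share 41.8%, the ratio 4.43 and the difference from intronic summits 3.91 points, of the other sign than in the full list. With protein-coding genes only, the share was 11.5%, the density 52.5 per Mb and the upstream share 74.3%. With a lower limit of 1000 bp they were 9.65%, 45.3 per Mb and 63.1%, and with an upper limit of 2000 bp 6.22%, 53.5 per Mb and 75.8%. Windows of 25 bp either side gave an E-box share of 20.3%, a ratio of 4.54 and a difference of -2.83 points, and windows of 100 bp a share of 44.8% and a ratio of 2.70. Control windows 500 bp away gave a ratio of 4.44. Matching within 50 bp gave 82.6% found in both replicates and within 200 bp 99.0%. The median rank stayed between 3243 and 3324 under the alternatives tried. The cause of the other changes was not tested. With 2 replicates, no depth and no untagged or other-antibody samples among the lists, small differences between classes could not be resolved.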

Other observations

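Some words were rarer at near-start intergenic summits than in their control windows. ACCGGT was in 0 of 795 summit windows, which allows a share of up to 0.377%, against 10 of 1590 control windows, and ACGGTG was in 5 summit windows, against 33 control windows. At intronic summits within 5 kb the ratios of these words to controls were 0.564 and 0.545. They were chosen as the lowest of 2080 words after their values were seen.

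The 28 summits matched in 1 replicate alone included 2 of high rank, chosen after their values were seen: one nearest CG44435 (rank 643) had no match within 100 bp in replicate 1 and ranked 782 in replicate 2, and one nearest Act87E (rank 664) ranked 783 in replicate 1 and had none in replicate 2. A Twist-type E-box was in 6 of these 28 windows, against 258 of the 767 matched in both.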
